A study of Schmidtea mediterranea with 58 samples.

Results

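At planarian wounds of control animals, 399 transcripts rose late in median level. Of these, 40 also rose in median level at wounds of *equinox* RNAi animals, by at least 0.6 of the control rise. They are 40 of 28742 transcripts measured. The values were CPM, a transcript's count scaled to a fixed library total, and L was the log2 of a group's median CPM plus 1. A transcript was taken if its highest control median was at least 5 CPM, if control L was highest at 48 h post amputation (hpa), if control L rose by at least 0.8 from 0 to 48 hpa, and if the rise in *equinox* RNAi was at least 0.6 of that. The 40 were thus chosen on the control libraries of every time and on the *equinox* RNAi libraries of 0 and 48 hpa. The values of those groups are given as a description. The *equinox* RNAi libraries of 3, 6, 16 and 24 hpa took no part in the choice, and only comparisons among these 4 times are given as tests. Values and calls that involve control libraries, or 0 or 48 hpa, stand beside them as a description from which nothing is read.

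The animals were asexual *Schmidtea mediterranea* of the CIW4 strain, fed 8 times with double-stranded RNA (dsRNA) of *equinox* or, as control, of *unc-22*, a *C. elegans* gene. They were then cut, and polyadenylated RNA was taken from anterior-facing wounds of the piece behind the pharynx, at 0 hpa and at 5 later times up to 48 hpa, with 5 wounds pooled in a replicate. Each treatment and time had 5 libraries, except 4 for *equinox* RNAi at 0 hpa and 4 for control at 48 hpa, which made 58 libraries. The dsRNA was given as food, so it was not limited to the wound or to a cell type. The 8 feedings are those of the labels, which give 7 days from the last feeding to the cut. For *equinox* RNAi the paper's methods give a range of feedings and a shorter interval.

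Planarians rebuild missing parts from neoblasts, their dividing stem cells. A cut first closes under wound epidermis, a generic wound response follows within hours, and neoblasts then gather and give rise to the blastema, the bud of new tissue. RNA that rises late at a wound can thus come from a changed mix of cells as well as from more RNA per cell, and these cannot be told apart in bulk RNA. *equinox* is a wound-induced planarian gene whose need in regeneration the study examined.

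Few of the 40 could be named. The annotation used here covers 1200 transcripts, and 4 of the 40 are among them. dd_1033 lists a ferritin domain among others, and its listed human protein match is FTH1, the heavy chain of ferritin, which stores iron. The nucleotide matches listed for dd_1033 are human FTL and mouse Csgalnact2. dd_10375 lists C2 and FYVE_2 domains, and its listed human protein match is SYTL3, a synaptotagmin-like protein that in mammals binds Rab proteins of secretory vesicles. dd_10584 carries a 7TMR-DISM_7TM domain, a stretch of membrane-spanning helices first described in bacterial receptors. dd_1049 had a nucleotide match to mouse Blmh, a cysteine peptidase, and no domain. The other 36 are given by number, and their roles are not stated here.

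Library totals ranged from 1312330 to 38053378 counts, with a median of 15070578. dd_20318, the transcript that *equinox* dsRNA targets, had 2.10, 1.33, 1.86, 1.12 and 0.827 CPM in *equinox* RNAi at 48 hpa, against 9.06, 7.90, 6.81 and 5.10 CPM in control. It was also below every control library in *equinox* RNAi at 16 and 24 hpa. At 0 hpa it went against the label, with 38.3, 27.2, 2.95 and 5.32 CPM in *equinox* RNAi and 4.56 to 7.75 CPM in control, and at 3 hpa with 9.90, 32.7, 30.4, 1.64 and 7.50 CPM against 4.53 to 6.86 CPM. Without replicates 1 and 2 of *equinox* RNAi at 0 hpa, 35 of the 40 still met the rule. In 5 *equinox* RNAi libraries, replicate 1 of 3 to 48 hpa, the time field of the labels names the time before the one in the title, and the title was followed. Replicate 5 of control at 6 hpa had the lowest correlation of any library with its own group (a median r of 0.939 across transcripts, against at least 0.965 elsewhere).

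The control rise of the 40 ran from 0.82 to 4.96, with a median of 1.04 on the log2 scale of L, and the *equinox* RNAi rise from 0.50 to 3.92, with a median of 0.85. The rise between medians was smaller in *equinox* RNAi than in control for 30 of the 40, down to the 0.6 set by the rule. The libraries of 48 and 0 hpa overlapped for 13 of the 40 in *equinox* RNAi and for 4 in control. The choice used all these libraries, so this is a description. In edgeR the lowest adjusted p among the 40 for a difference between treatments in the change from 0 to 48 hpa was 0.0628 (dd_13707). The rule had left out transcripts with a much smaller rise in *equinox* RNAi, so nothing is read from this lack of calls. 17 had a ratio of the 2 rises from 0.6 to under 0.7 and 13 from 0.7 to under 1, and in 10 it was 1 or more. The largest control rises belonged to dd_10584 (3.92 in *equinox* RNAi and 4.96 in control) and dd_17762 (2.37 and 3.36 in the same order of treatments). In *equinox* RNAi dd_1202 (3.72), dd_2184 (2.93) and dd_4939 (2.77) rose more than dd_17762. The other 359 late risers had a median *equinox* RNAi rise of 0.31, and 20 of them did not rise at all in *equinox* RNAi.

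**Figure D1:**
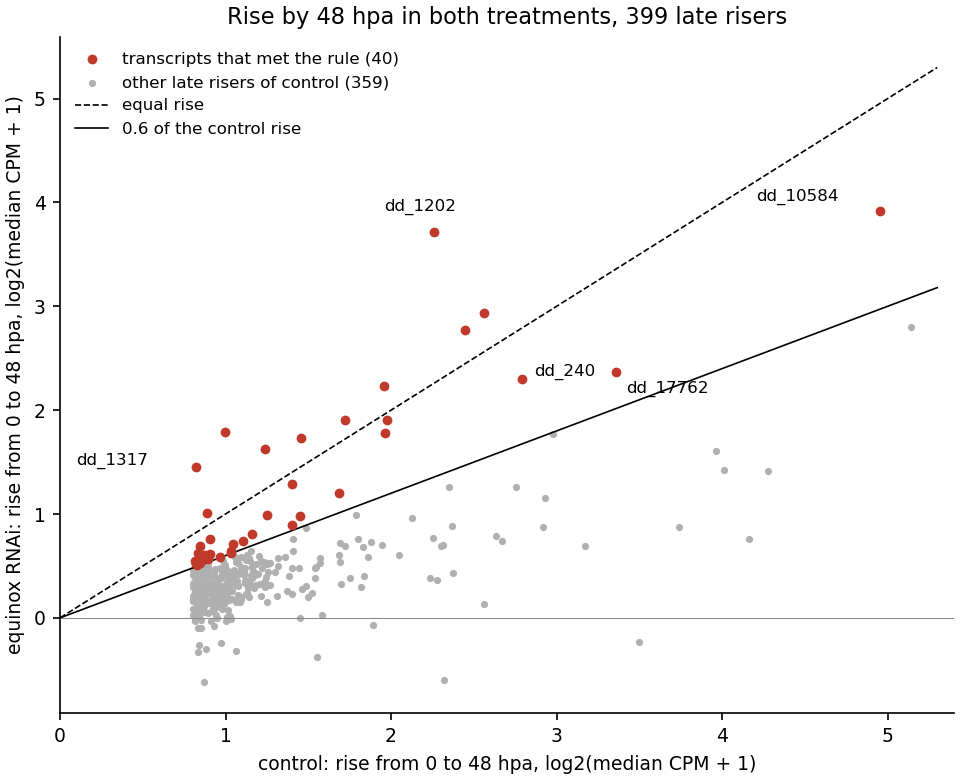
Rise from 0 to 48 hpa in *equinox* RNAi (vertical axis) against control (horizontal axis), both as the difference of log2(median CPM + 1), for 399 late risers. The 40 chosen transcripts lie on or above the line at 0.6 of the control rise, 10 of them at or above the line of equal rise, and most of the other 359 lie far below.

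Near the thresholds the choice was narrow. Just inside the ratio of 0.6 lay dd_13707 (0.601) and dd_1033 (0.602), and just outside dd_10187 (0.595) and dd_2375 (0.593). At the control rise of 0.8, dd_3430 (0.82) and dd_1317 (0.82) lay inside and dd_11113 (0.79) and dd_11876 (0.79) outside. The lowest highest control median among the 40 was 8.04 CPM for dd_7131, followed by 11.1 CPM for dd_6957, while dd_19504 (4.74 CPM) and dd_12722 (3.67 CPM) fell short of 5. When each of the 58 libraries was left out in turn, between 29 and 40 of the 40 still met the rule, and 17 met it every time. Those 17 include dd_10584, dd_17762, dd_2184, dd_4939 and dd_5999, but not dd_1202, dd_1317 or the ferritin transcript dd_1033.

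In 9 of the 10 transcripts that rose at least as much in *equinox* RNAi as in control, the *equinox* RNAi median at 0 hpa was below that of control. A low start adds to the rise by definition, so nothing is read from this count. The gap could be small, as for dd_385 with medians of 163 CPM in *equinox* RNAi and 168 CPM in control. dd_1202 had 22.4, 5.99, 3.17 and 5.29 CPM in *equinox* RNAi at 0 hpa, against 38.4, 15.4, 27.0, 24.1 and 17.9 CPM in control. At 48 hpa it had 93.4, 135, 60.1, 86.4 and 46.5 CPM in *equinox* RNAi and 90.1, 148, 81.8 and 159 CPM in control. The groups overlapped at both times, and the lower start of *equinox* RNAi went with a rise of 3.72 in *equinox* RNAi, 1.65 times the control rise. dd_4939 had 1.42, 1.39, 1.13 and 0.788 CPM in *equinox* RNAi at 0 hpa, against 15.2, 3.25, 7.96, 8.24 and 3.04 CPM in control, with no overlap. At 48 hpa dd_4939 had 14.5, 12.5, 7.46, 25.5 and 40.1 CPM in *equinox* RNAi and 68.7, 63.7, 16.4 and 32.0 CPM in control, so that its rise of 2.77 in *equinox* RNAi ended at a lower median than that of 2.45 in control. dd_385 was one of the 10 with a larger end value. Its median at 48 hpa was 567.7 CPM in *equinox* RNAi and 337 CPM in control. The *equinox* RNAi libraries, from 162 to 735 CPM, spanned those of control, from 224 to 464 CPM. Over the 40, the median at 48 hpa was lower in *equinox* RNAi for 26 and higher for 14.

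Whether the rise could be seen in *equinox* RNAi libraries that the choice did not use was asked by comparing 24 with 3 hpa. All 40 transcripts passed the filter on low counts. Of them 20 were higher at 24 than at 3 hpa and 1 was lower at an adjusted p under 0.05, where 2.98% of the 20129 transcripts tested were higher and 3.55% lower. The log2 fold change was above 0 for 39 of the 40, with a median of 0.76 over the 40 and of -0.02 over all transcripts tested. Control, which the choice had used, had 34 higher and 1 lower of the 40 between the same times (20.5% higher and 22.7% lower of all tested). As a description, since the control libraries had entered the choice, the change from 3 to 24 hpa was called different between *equinox* RNAi and control for none of the 40 in edgeR (0.288% of all tested were higher and 0.442% lower), although 6 of the 40 had an unadjusted p under 0.05 and DESeq2 called 1 of them lower in *equinox* RNAi. With the 5 libraries placed by their time field, 6 were called lower. The share of all transcripts called in that fit is not given here, so nothing is read from the 6.

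Without the 2 *equinox* RNAi libraries of 3 hpa that were highest in the targeted transcript, 17 of the 40 were higher at 24 hpa and 1 lower. The share of all transcripts called in that reduced fit is not given here, so the count cannot be set against it. Starting from 6 hpa, where the targeted transcript was at 1.57 to 3.72 CPM in *equinox* RNAi, left 7 higher at 24 hpa and none lower (1.15% higher and 1.83% lower of all tested). Mitochondrial RNA, summed over 8 transcripts that the study lists, made up 0.385% to 0.434% at 24 hpa and 0.283% to 0.387% at 3 hpa of the counts in *equinox* RNAi, and its part in these changes was not tested.

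**Figure D2:**
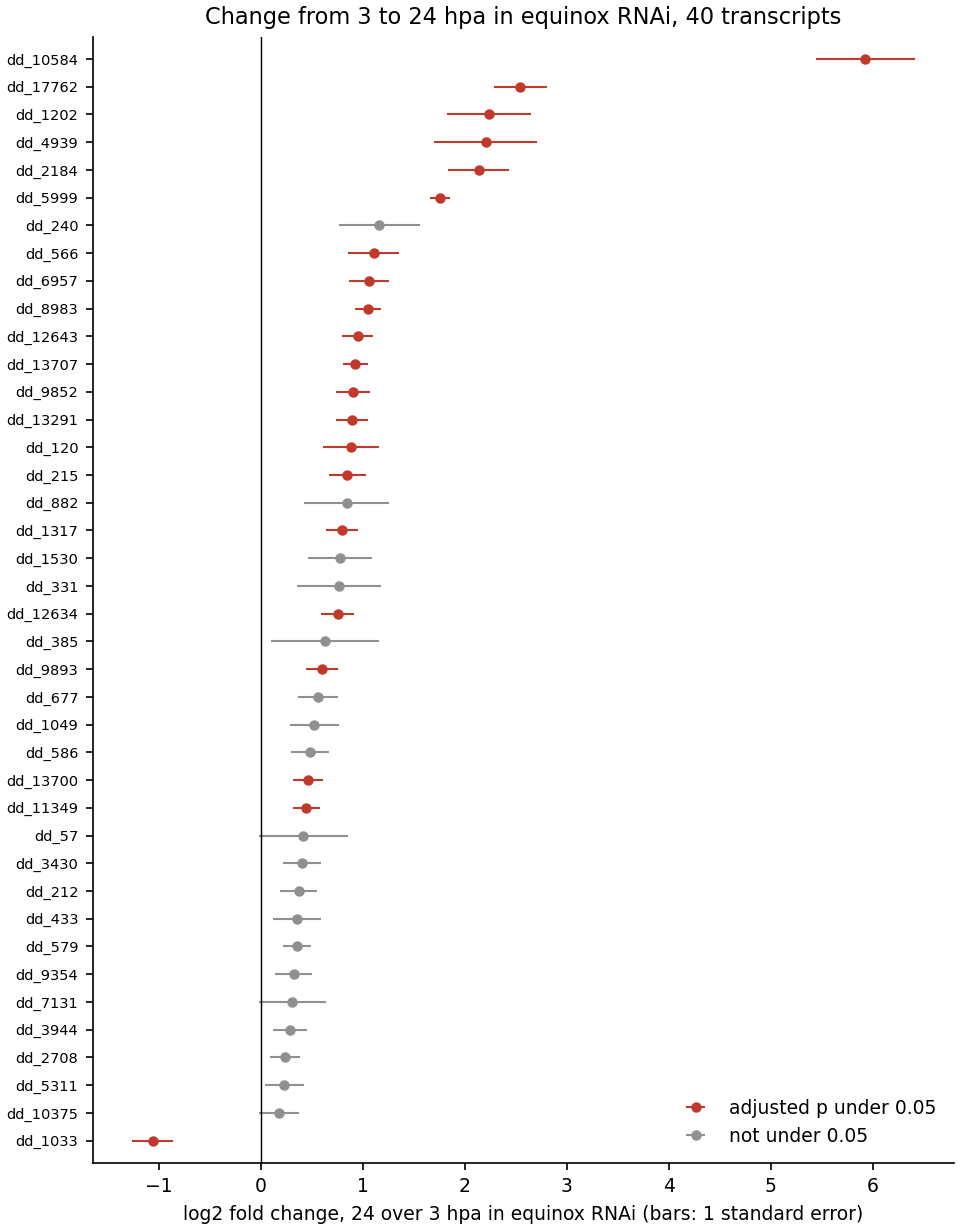
Log2 fold change of 24 over 3 hpa in *equinox* RNAi for the 40 transcripts, ordered by size, with bars of 1 standard error from the edgeR fit (5 libraries at each time). Red points had an adjusted p under 0.05, 20 of them to the right of 0 and 1, dd_1033, to the left.

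dd_10584, with its membrane-spanning domain, changed most. In *equinox* RNAi it had 12.6, 7.44, 12.03, 14.8 and 17.5 CPM at 24 hpa, against 0.0750, 0.237, 0.192, 0.143 and 0.354 CPM at 3 hpa. Every library of 24 hpa was above every library of 3 hpa, and the log2 fold change was 5.93 ± 0.48 (SE), with an adjusted p of 2.27e-13. The 3 hpa libraries held only 1 to 5 counts each, so the size of that change is known less well than its direction. At 6 hpa it had 0.920, 2.64, 0.523, 0.885 and 0.254 CPM in *equinox* RNAi and a log2 fold change over 3 hpa of 2.39 ± 0.61 (SE), with an adjusted p of 0.0230. The libraries of 6 and 3 hpa overlapped, replicate 2 of 6 hpa was far above the rest, and without it the log2 fold change was 1.74, with an adjusted p of 0.222. Of the 10 fits without 1 library, 6 called it. At 48 hpa it reached 21.0, 20.9, 6.13, 26.0 and 25.1 CPM in *equinox* RNAi and 37.0, 37.1, 42.6 and 37.7 CPM in control. Here *equinox* RNAi lay below control in every library, lowest in replicate 3.

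dd_17762 had 3.86, 5.95, 6.02, 6.05 and 7.74 CPM at 24 hpa in *equinox* RNAi and 1.199, 0.950, 1.15, 0.643 and 1.06 CPM at 3 hpa, again with no overlap, and a log2 fold change of 2.54 ± 0.26 (SE), with an adjusted p of 1.90e-10. At 48 hpa it had 8.56, 6.01, 2.22, 8.96 and 13.4 CPM in *equinox* RNAi and 34.3, 25.5, 21.3 and 22.3 CPM in control. The *equinox* RNAi values of 48 hpa spanned those of 24 hpa and lay below every control library, lowest in replicate 3. The 2 transcripts with the largest control rises were both lower at 48 hpa in *equinox* RNAi than in control. Their ratio of rises was 0.79 for dd_10584 and 0.71 for dd_17762. They were picked by a rise that holds the control level at 48 hpa, so nothing is read from this.

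Most of the transcripts that were higher at 24 hpa were higher by 16 hpa in *equinox* RNAi. Of the 40, 16 were higher at 16 than at 3 hpa, 15 of them also among the 20 above, and 1 was lower (4.97% higher and 5.63% lower of all tested), with a median log2 fold change of 0.47 over the 40 and -0.01 over all. dd_5999 had 140.2, 142, 159, 154 and 128 CPM at 16 hpa and 41.7, 56.0, 47.6, 35.6 and 42.2 CPM at 3 hpa in *equinox* RNAi, a log2 fold change of 1.65 ± 0.10 (SE), with an adjusted p of 1.99e-18. Its *equinox* RNAi medians were 37.9, 42.2, 66.5, 142, 143 and 182 CPM in the order of the 6 times, and those of control were 46.3, 54.3, 62.7, 146, 139 and 182 CPM. At 0 hpa every *equinox* RNAi library (34.4 to 39.6 CPM) lay below every control library (41.3 to 48.0 CPM), and at the later times the groups overlapped. dd_5999 had the smallest standard error of the 40 in this contrast.

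dd_2184 had 43.8, 51.3, 50.04, 52.0 and 48.7 CPM at 16 hpa in *equinox* RNAi, against 12.7, 8.61, 16.1, 6.93 and 10.1 CPM at 3 hpa, a log2 fold change of 2.14 ± 0.30 (SE), with an adjusted p of 5.10e-07. dd_4939 had 23.6, 46.7, 44.0, 33.8 and 16.9 CPM against 4.498, 3.68, 1.92, 2.29 and 3.89 CPM, a log2 fold change of 3.28 ± 0.50 (SE), with an adjusted p of 3.46e-06. dd_1202 had 130.2, 111, 114, 77.4 and 107 CPM against 15.7, 7.36, 24.6, 7.43 and 13.7 CPM, a log2 fold change of 2.94 ± 0.42 (SE), with an adjusted p of 7.11e-07. In all 3 transcripts every library of 16 hpa was above every library of 3 hpa. dd_4939 and dd_1202 had lower medians at 24 than at 16 hpa in *equinox* RNAi, 18.0 against 33.8 CPM and 66.9 against 111 CPM. Smaller log2 fold changes of 16 over 3 hpa were those of dd_566 (1.24 ± 0.25), dd_1317 (1.03 ± 0.16) and dd_215 (0.93 ± 0.18), all with SE and all called. The median of dd_215 was 883 CPM at 16 hpa and 413 CPM at 3 hpa.

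From 16 to 24 hpa in *equinox* RNAi none of the 40 passed the test in edgeR in either direction (0.76% higher and 1.44% lower of all tested), while 4 had an unadjusted p under 0.05 and DESeq2 called none. Without replicate 1 of 16 hpa or replicate 2 of 24 hpa 1 was called. From 3 to 6 hpa 4 were higher and none lower (0.979% higher and 0.656% lower of all tested), namely dd_10584, dd_5999, dd_13707 and dd_8983, the last named after its values were seen. In control 5 were higher and 1 lower over these hours (6.65% and 2.88% of all tested), and from 16 to 24 hpa 8 were higher and none lower (1.57% and 2.33%). Without replicate 2 of *equinox* RNAi at 6 hpa, or without the 2 libraries of 3 hpa high in the targeted transcript, 2 were called. Taking L as above, a median of 0.62 of the *equinox* RNAi rise was reached by 16 hpa and 0.70 by 24 hpa, and in control 0.46 and 0.65. In *equinox* RNAi 33 of the 40 had their highest median at 48 hpa, 5 at 16 hpa and 2 at 24 hpa.

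**Figure D3:**
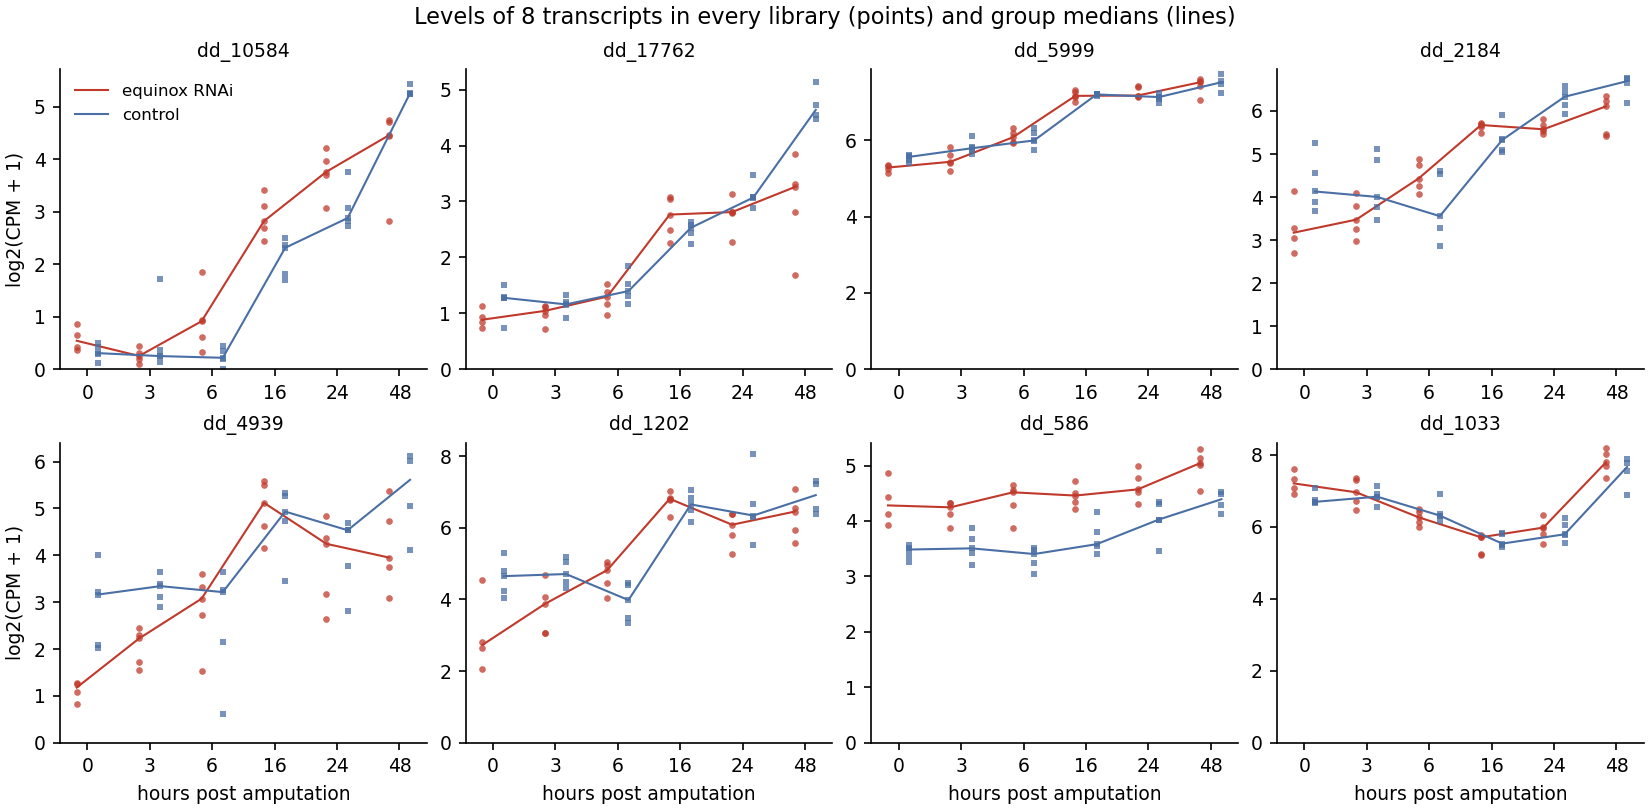
Levels as log2(CPM + 1) of 8 of the 40 transcripts at each time in *equinox* RNAi (red circles, left) and control (blue squares, right), with 1 point a library and lines through the group medians. dd_5999 started lower in *equinox* RNAi and overlapped with control from 3 hpa on, dd_17762 ended lower and dd_586 stayed higher in *equinox* RNAi, and dd_1033 dipped at 16 and 24 hpa in both.

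The ferritin transcript dd_1033 was the only one of the 40 to fall between 3 and 24 hpa in *equinox* RNAi. It had 78.6, 61.8, 55.0, 63.0 and 44.6 CPM at 24 hpa and 86.3, 155, 162, 103 and 122.8 CPM at 3 hpa, with no overlap and a log2 fold change of -1.06 ± 0.20 (SE), with an adjusted p of 2.06e-04. With the 5 libraries placed by their time field the fall was no longer called (adjusted p 0.205), and from 6 hpa as the start it was not called either (log2 fold change -0.38 ± 0.20 (SE), adjusted p 0.458). It was called under the other alternatives and without each library. At 16 hpa it was lowest, at 51.1, 36.0, 36.8, 51.7 and 53.7 CPM, a log2 fold change from 3 hpa of -1.50 ± 0.20 (SE), with an adjusted p of 2.21e-07. It then had 205, 219, 256, 288 and 162 CPM at 48 hpa in *equinox* RNAi and 117, 233, 186 and 216 CPM in control. Control dipped in the same way, to a median of 45.1 CPM at 16 hpa, against 113 CPM at 3 hpa. Its medians at 48 hpa were above those at 0 hpa in both treatments.

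Of the 40, 19 were not called between 3 and 24 hpa. One of them, dd_579, took more of the reads than any other of the 40, with no correction for length. It had 2509, 2175, 2223.7, 2197 and 1983 CPM at 24 hpa in *equinox* RNAi, against 1471, 1836, 2049, 1642 and 1584 CPM at 3 hpa, a log2 fold change of 0.35 ± 0.14 (SE), with an adjusted p of 0.133. Its *equinox* RNAi medians at 0 and 48 hpa were 1628 and 2408 CPM, against 1196 and 2220.2 CPM in control. The *equinox* RNAi median thus started higher, and the rise between the medians was smaller. The log2 fold changes of 24 over 3 hpa did not pass the test either for dd_212 (0.37 ± 0.18, adjusted p 0.264), dd_1049 (0.53 ± 0.24, adjusted p 0.233) and dd_433 (0.36 ± 0.24, adjusted p 0.461). For dd_10375, the transcript matched to SYTL3, it was 0.18 ± 0.19 (adjusted p 0.712), from 18.9, 13.8, 15.3, 18.0 and 15.6 CPM at 24 hpa and 12.1, 13.1, 21.0, 11.4 and 14.4 CPM at 3 hpa. The 2 times overlapped. At 48 hpa dd_10375 had 22.8, 26.9, 23.0, 18.6 and 15.3 CPM in *equinox* RNAi and 19.4, 20.6, 21.98 and 24.7 CPM in control. dd_120 was called by a small margin, with a log2 fold change of 0.88 ± 0.27 (SE), with an adjusted p of 0.0372, and stayed called in 3 of 10 fits without 1 library.

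Some of the 40 moved together between replicates, as seen after their values were known. At a correlation of 0.5 there were 6 clusters, 1 of 10 transcripts, 1 of 6, and 4 pairs, while 16 transcripts stood alone. The cluster of 10 holds dd_1049, dd_579, dd_212, dd_10375 and dd_677. Its pairwise r ran from 0.16 to 0.89 with a median of 0.61, so not every pair in it reached 0.5. The 6, the more tightly correlated of the larger clusters, are dd_240, dd_331, dd_1530, dd_57, dd_882 and dd_385. The deviations of their log2(CPM + 1) from the group means had pairwise correlations from 0.63 to 0.95 over the 58 libraries, against a median of 0.13 over all 780 pairs of the 40. The points share library depth and preparation. None of the 6 was called between 3 and 24 hpa in *equinox* RNAi, where their log2 fold changes lay from 0.42 ± 0.44 for dd_57 to 1.16 ± 0.40 (SE) for dd_240, with adjusted p of 0.695 and 0.0688.

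The 6 differed most between treatments at 6 hpa. dd_385 had 199, 200.01, 191, 600.2 and 147 CPM in *equinox* RNAi at 6 hpa and 29.1, 159, 147, 10.9 and 1.25 CPM in control. dd_240 had 18.3, 12.8, 7.74, 28.4 and 10.7 CPM in *equinox* RNAi and 0.582, 4.65, 5.56, 2.13 and 0.178 CPM in control, and dd_331 had 42.9, 17.2, 8.94, 37.5 and 18.2 CPM and 2.18, 7.45, 5.397, 2.56 and 0 CPM. For dd_385 the lowest *equinox* RNAi library lay among the highest control libraries. Every *equinox* RNAi library of dd_240 and dd_331 was above every control library. In control, replicates 1, 4 and 5 were low for all 6, and replicate 5, the lowest for each, is the library that correlated least with its group. Summed over the 6, *equinox* RNAi had a median of 276.7 CPM and control of 40.6 CPM at 6 hpa. Without replicate 5 the control median at 6 hpa was 115.8 CPM. At 48 hpa the medians were 808 CPM in *equinox* RNAi and 541 CPM in control. At 48 hpa replicate 3 of *equinox* RNAi was lowest, with 222.7 CPM. *equinox* RNAi libraries of 6 hpa held 15753307 to 29363121 counts and control libraries 4691615 to 10741852. The mitochondrial share at 6 hpa was 0.264% to 0.346% in *equinox* RNAi and 0.368% to 0.652% in control, and the part of depth or of this share in the difference was not tested. For dd_1530 and dd_882 the 6 hpa medians were 15.9 and 14.7 CPM in *equinox* RNAi and 3.93 and 2.04 CPM in control.

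**Figure D4:**
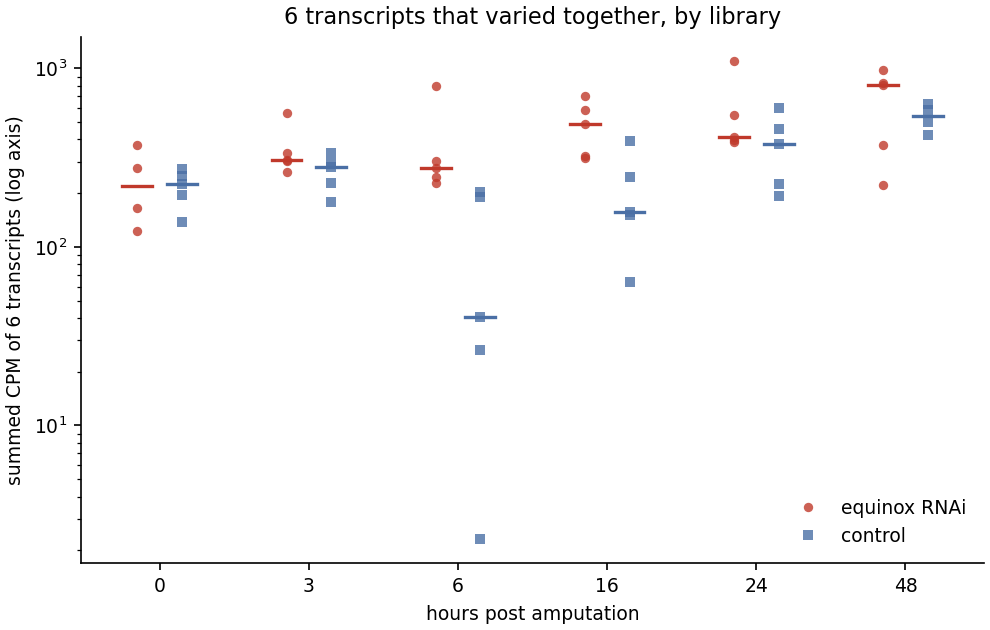
Summed CPM (log axis) of dd_240, dd_331, dd_1530, dd_57, dd_882 and dd_385 in each library, in *equinox* RNAi (red circles, left) and control (blue squares, right) at each time, with bars at the group medians. At 6 hpa the *equinox* RNAi libraries lay above all control libraries, and one control library was near 2 CPM.

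Between treatments at each time, the control libraries had entered the choice through the condition that control peaked at 48 hpa, so the counts that follow are a description. At 3 hpa 6 of the 40 were higher in *equinox* RNAi than in control and none lower (5.78% higher and 5.55% lower of all tested). Dropping control replicate 1, 2 or 4, or *equinox* RNAi replicate 3, 4 or 5, left 3. At 6 hpa 16 were higher and none lower (3.69% and 3.96% of all tested), among them the 6 transcripts above, dd_120, dd_215, dd_566 and dd_579. A fit of only the 2 groups called 4, all among the 16, and without replicate 4 of control at 6 hpa 9 were called. At 16 hpa 1 was higher (0.308% of all tested) and none lower (0.298%). That call ended when control replicate 1, 3 or 4, or *equinox* RNAi replicate 1, 4 or 5, was dropped. At 24 hpa none differed in edgeR (0.576% and 0.671% of all tested), with 8 at an unadjusted p under 0.05 and 1 called by DESeq2, and likewise 1 without control replicate 1 or 3. At 0 hpa 2 were higher and 1 lower (0.472% and 0.949%), and at 48 hpa 2 were higher and 7 lower (8.07% and 9.46%), in groups that the choice had used. The count at 0 hpa was 1 without *equinox* RNAi replicate 5.

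dd_586 and dd_677, named here after their values were seen, were higher in *equinox* RNAi than in control from the start. A higher level at 0 hpa was not theirs alone. dd_579 had 1411 to 1745 CPM in *equinox* RNAi and 1060 to 1216 CPM in control at 0 hpa. dd_3944 had 17.6 to 20.4 CPM in *equinox* RNAi and 12.7 to 17.1 CPM in control at 0 hpa. dd_586 had 13.7, 18.0, 19.0, 18.9 and 16.4 CPM in *equinox* RNAi at 3 hpa, against 8.27, 10.4, 13.7, 11.7 and 9.68 CPM in control, and 21.9, 24.2, 13.6, 22.6 and 18.7 CPM at 6 hpa, against 8.44, 9.59, 10.5, 7.25 and 10.2 CPM. The log2 fold change of *equinox* RNAi over control for dd_586 was 0.91 ± 0.20 at 3 hpa and 1.21 ± 0.21 at 6 hpa. It was 0.78 ± 0.19 at 16 hpa and 0.61 ± 0.19 (SE) at 24 hpa. All but the last had an adjusted p under 0.05 in edgeR (0.104 at 24 hpa). The values of this paragraph are a description, since the choice had used libraries of control and of 0 and 48 hpa. At 0 hpa the range of dd_586 was 14.3 to 28.3 CPM in *equinox* RNAi and 8.59 to 10.8 CPM in control, with no overlap. For dd_677 it was 62.4 to 102 CPM in *equinox* RNAi and 38.02 to 50.9 CPM in control at 0 hpa. At 48 hpa dd_677 had 105 to 121 CPM in *equinox* RNAi and 47.9 to 82.4 CPM in control.

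At 48 hpa the lowest fitted fold changes of *equinox* RNAi over control were those of dd_17762, dd_7131, dd_4939 and dd_10584. dd_7131 had 1.93, 2.93, 1.24, 3.66 and 3.00 CPM in *equinox* RNAi at 48 hpa, against 6.39, 7.86, 8.22 and 8.25 CPM in control, with no overlap. Over the 40, the log2 ratio of the medians at 48 hpa ran from -1.72 to 0.75, with a median of -0.12. The mitochondrial share was 0.341% to 0.445% in *equinox* RNAi and 0.441% to 0.647% in control at 48 hpa, and its part in these values was not tested.

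**Figure D5:**
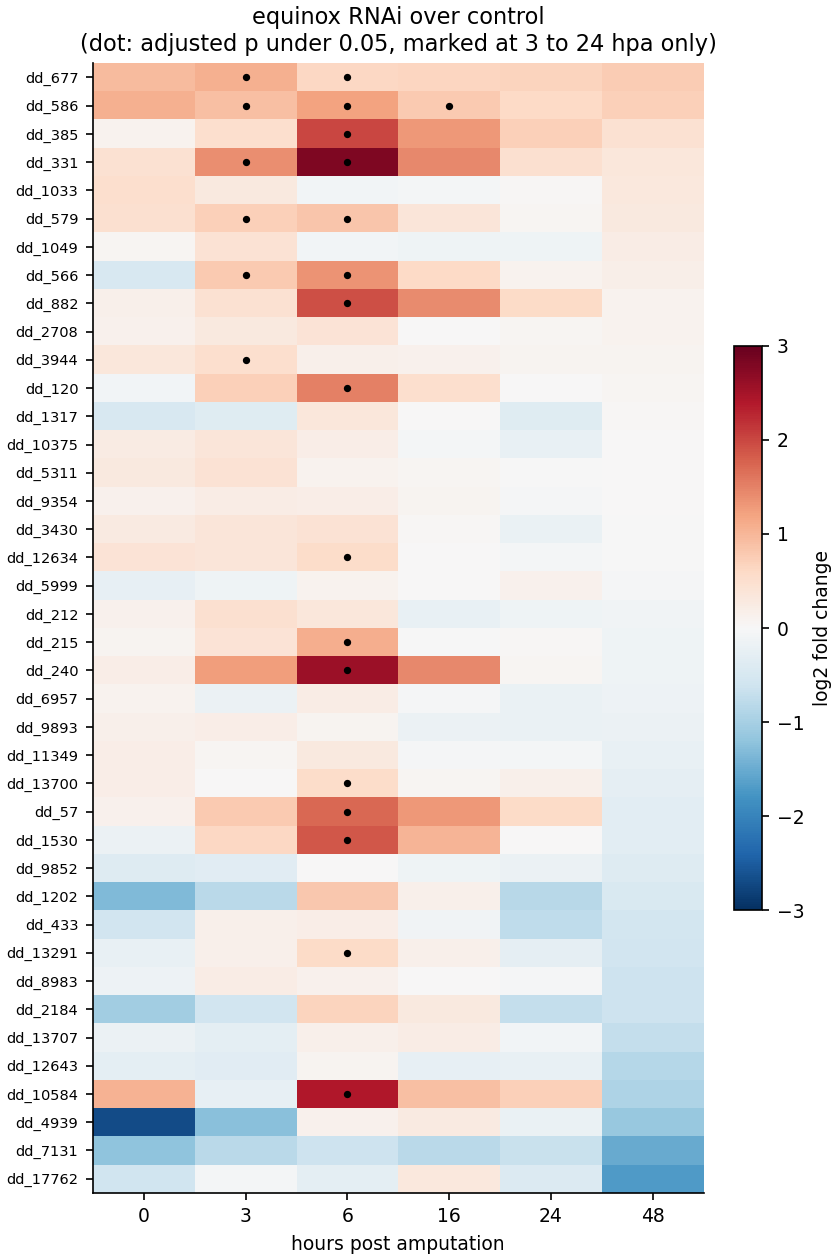
Log2 fold change of *equinox* RNAi over control (colour) for the 40 transcripts at each time, ordered by the value at 48 hpa, with dots at 3 to 24 hpa where the adjusted p was under 0.05. dd_586 and dd_677 are red in every column, and 16 transcripts have a dot at 6 hpa. dd_331, dd_385, dd_882, dd_579, dd_3944 and dd_2708 also had a log2 fold change above 0 at every time.

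The 359 late risers that missed the ratio of 0.6 were a point of reference between 3 and 24 hpa as well. In *equinox* RNAi 92 of them (25.6%) were higher and 3 lower at 24 than at 3 hpa, with a median log2 fold change of 0.27, beside 20 of the 40 (50%) and a median of 0.76. In control 317 of the 359 and 34 of the 40 were higher. These 2 sets were split on the rise to 48 hpa, and the difference between them was not tested.

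Lists of protein domains for muscle, neurons, cilia and tubulin, replication and chromatin, ribosomal proteins, peptidases and homeobox proteins, taken over the 1200 annotated transcripts, held 38 tested transcripts and none of the 40. The muscle list was empty. Between 3 and 24 hpa in *equinox* RNAi 2 of 9 neural transcripts and 1 of 14 peptidases were lower, none of 6, 2, 5 and 2 of the other lists changed, and list medians lay from -0.23 to 0.14 on the log2 scale, beside -0.02 over all transcripts tested. They are too few to check the tissue or its cell types.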

How the data were processed

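RNA of 58 libraries was sequenced, and the authors deposited raw read counts per transcript, without normalization. Reads were mapped to the dd_Smed_v6 transcriptome, with contigs of a transcript summed. The submitters' processing notes name cutadapt 1.8, Bowtie 1.2 and SAMtools 1.6. Reads shared by similar transcripts could be split, which was not examined. Samples were grouped by treatment and time of their titles, and the labels do not say whether replicates were separate cultures, so p-values measure the spread between these samples.

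CPM used column totals, and the rule's L a pseudocount of 1. All 12 groups were fitted with edgeR 4.0.16 (R 4.3.3, quasi-likelihood, robust, TMM), after filterByExpr with a minimum count of 10, which kept 20129 transcripts and at least 99.9% of each library's counts. Calls had a Benjamini-Hochberg adjusted p under 0.05 over all of them. The fit was also run on simulated counts with an equal spread for all transcripts, which checks the code and not the calls made here. Alternatives were RLE size factors, no filter, DESeq2 1.42.0, a replicate block, a fit restricted to the groups in question, omission or moving of the 5 libraries named above, and omission of each single library, and for the rule other averages, pseudocounts and ratios.

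The 40 transcripts and all lists were chosen with earlier results of these data known. Named were the 10 with the largest control rise, 5 by control CPM at 48 hpa, 5 by ratio of rises, 5 by CPM among those not called, those with annotation and those at the thresholds. Annotation came from the study's table whose older transcript numbers equalled the current ones for 94.2% of entries. That compares numbers and not names. The study's other annotation gave the same human name for 0 of 461 transcripts named in both, and it was not used.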

Additional observations from a re-analysis of the deposited data

Results flagged for a closer look

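Single libraries that stood far from the rest of their group were looked for in the 10 transcripts with the largest control rise, in dd_20318 and in the summed share of the 40, over 144 sets of 4 or 5 libraries. 10 were found, and chance gives about 1 in 20 of such sets. dd_10584 accounted for 5, at 2.64 CPM in *equinox* RNAi replicate 2 at 6 hpa (others up to 0.92), 6.13 CPM in *equinox* RNAi replicate 3 at 48 hpa (others from 20.9), 2.29 CPM in control replicate 3 at 3 hpa (others up to 0.298), 12.6 CPM in control replicate 5 at 24 hpa (others up to 7.39) and 42.6 CPM in control replicate 3 at 48 hpa (others up to 37.7). dd_240 was low at 11.8 CPM in *equinox* RNAi replicate 1 at 16 hpa (others from 18.6) and at 2.74 CPM in control replicate 4 at 3 hpa (others from 5.41). dd_1202 was high at 22.4 CPM in *equinox* RNAi replicate 1 at 0 hpa (others up to 5.99) and at 267 CPM in control replicate 1 at 24 hpa (others up to 100.2), and dd_1530 at 42.4 CPM in *equinox* RNAi replicate 2 at 24 hpa (others up to 23.6).

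The change of the targeted transcript dd_20318 from 3 to 24 hpa differed between treatments, by -3.89 on the log2 scale in *equinox* RNAi relative to control (edgeR, adjusted p 0.00226).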

How the results depend on the processing

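Of the 21 transcripts called between 3 and 24 hpa in *equinox* RNAi, 14 were called under every alternative that kept 3 hpa as the start and without each library, and 7 of these 14 were also higher at 24 than at 6 hpa. Of 720 alternative fold changes of single transcripts 675 kept direction and call, 38 lost and 5 gained the call, and 2 turned, dd_10375 to -0.058 with the libraries placed by the time field and dd_57 to -0.0059 without *equinox* RNAi replicate 2 at 24 hpa (up to 0.58 without replicate 1). Called in all were 21, with 7 from 6 hpa as the start, 10 among the 17 that met the rule in every selection, and 18 to 21 without 1 library. The set itself depends on the rule. With means in place of medians 36 met it, 23 of the 40 among them, with a pseudocount of 5 there were 24, with a ratio of 0.5 there were 70 and with 0.8 there were 16, and without 1 library 32 to 59.

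The other counts without 1 library were 15 to 19 for 16 against 3 hpa, 2 to 5 for 6 against 3 hpa, 0 to 1 for 24 against 16 hpa, 0 to 1 for the change from 3 to 24 hpa between treatments, and, between treatments, for 0 hpa 1 to 4, for 3 hpa 3 to 7, for 6 hpa 9 to 17, for 16 hpa 0 to 2, for 24 hpa 0 to 1 and for 48 hpa 7 to 10. DESeq2 called 7 for 6 against 3 hpa, 7 between treatments at 0 hpa, 1 at 24 hpa and 1 for the change between treatments. A fit of only the groups compared called, between treatments, for 0 hpa 5, for 3 hpa 13, for 6 hpa 4, for 16 hpa 0, for 24 hpa 1, and 1 for the change between treatments. Leaving out the 5 libraries with differing times gave 0 at 16 hpa and 1 for that change (dd_579), and placing them by the time field 18 at 3 hpa and 6 for that change. Without a filter 3 were called at 3 hpa and 0 at 16 hpa, and without the 2 libraries of 3 hpa high in the targeted transcript 2 for 6 against 3 hpa. Both the start at 6 hpa and the sets without those libraries were chosen after seeing the data. Shares of all transcripts called are given for the main fit only, so the counts under alternatives have no such share beside them. The causes were not tested.

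The labels do not say that replicate numbers pair samples, and in no comparison did the deviations of all same-numbered pairs correlate by over 0.1, the limit set for pairing. The nearest was *equinox* RNAi against control at 16 hpa, with r from 0.082 to 0.755 and 3 of 5 pairs correlating best with their own number. With a replicate block 21 were called for 24 against 3 hpa, 17 for 16 against 3 hpa, and between treatments for 0 hpa 4, for 3 hpa 7, for 6 hpa 16, for 48 hpa 9 and for 24 hpa 1, where none was called without it. In libraries as shallow as 1312330 counts, transcripts of a few CPM rest on few counts.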
